A study of Homo sapiens with 24 samples.

Results

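The genes described here make, import, move and export cholesterol. They are 32 genes listed by name: 20 enzymes from acetoacetyl-CoA to cholesterol, 5 regulators, 4 uptake and transport genes and 3 efflux and esterification genes. All 32 had a row among the 25365 gene rows of the deposited expression table. The list was set by gene function and not by a cut on measured values. It was, however, chosen with earlier results of these data known, so its counts beside those of all genes are descriptions. PC9 and HCC4006 are established lung adenocarcinoma lines with an activating mutation of EGFR, the receptor tyrosine kinase. For each line there were control cells (CTRL) and YAP1 KO cells, in which the gene of the Hippo pathway coactivator YAP1 was knocked out per the labels. Dishes received DMSO, the solvent, or OT for 24 h, where OT combines 100 nM of osimertinib, which inhibits EGFR, and 30 nM of trametinib, which inhibits MEK. Crossing 2 lines, 2 genotypes and 2 treatments gave 8 groups (PC9 CTRL DMSO, PC9 CTRL OT, PC9 YAP1 KO DMSO and PC9 YAP1 KO OT, and the same for HCC4006) of 3 dishes each, with 1 mRNA library per dish. The column headers carry 1 YAP1 KO tag per line, so the replicates of a line are read here as dishes of the same populations. The p-values therefore measure the spread between dishes, and what belongs to YAP1 loss and what to the population cannot be told apart.

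Cells build cholesterol from acetyl-CoA through mevalonate, isoprenoids, squalene and lanosterol, and they also take it up in lipoproteins. The transcription factor SREBP2, the product of SREBF2, switches on the synthesis and uptake genes: when sterols are low the escort protein SCAP carries it from the endoplasmic reticulum for activation, and when sterols are high the INSIG proteins hold both back. Oxysterols activate the LXR receptors, which raise the efflux pumps ABCA1 and ABCG1 and the ubiquitin ligase MYLIP, so that synthesis and export usually move in opposite ways.

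Levels are the authors' FPKM (fragments per kilobase of exon, normalised to the reads mapped in the library), and differences are those of group means of log2(FPKM + 1), here called log2 differences, tested with limma. Called means an adjusted p under 0.05 after Benjamini-Hochberg correction across every gene tested. Summed over a library, FPKM came to 604392 to 620813 in PC9 under DMSO and 566982 to 593526 under OT, and to 621936 to 660459 and 507119.9 to 574160.0 in HCC4006. Absolute depth is unknown from FPKM. YAP1 itself averaged 28.1% of the CTRL level in PC9 YAP1 KO cells under DMSO and 32.2% under OT, and 23.2% and 39.6% in HCC4006, with no overlap between genotypes. All 7 epithelial markers averaged at least 1 FPKM in both lines, and their summed level was 6018 to 6834 FPKM in PC9 under DMSO and 8129 to 9943 under OT, and 5005 to 6498 and 3214 to 4808 in HCC4006, so it was higher with OT in PC9 and lower in HCC4006. Keratins made up most of that sum, and some markers went against it. In HCC4006 CTRL cells CDH1 averaged 57.4 FPKM under DMSO and 94.8 under OT, and CLDN4 106 and 140.3. In PC9 CTRL cells EPCAM averaged 355 and 269.9 FPKM. The other epithelial markers went with the sum in the CTRL cells of each line. The part of the sum in the results below was not tested. Of 5 lung markers 0 reached that level in PC9, where SFTPB, SFTPC and SFTA3 were at 0 in all DMSO libraries, and 2 did in HCC4006 under DMSO and 3 under OT. The summed level of 5 leukocyte markers ran from 34.7 to 39.9 FPKM in PC9 under DMSO and 29.4 to 38.9 under OT, and from 21.9 to 24.8 and 82.8 to 110.1 in HCC4006. That of 6 fibroblast markers was 1.38 to 1.71, 1.90 to 2.71, 2.37 to 3.84 and 7.29 to 20.5 FPKM in the same order, that of 4 endothelial markers was at most 1.16 except at 4.61 to 6.68 in HCC4006 under OT, and that of 4 hepatocyte markers was at most 0.111. In HCC4006 CTRL cells the endothelial rise was mostly KDR (mean 0.195 to 5.09 FPKM), with PECAM1 at 0 under OT. The fibroblast rise there was mostly COL1A2 (1.26 to 15.4), with COL1A1 at 2.17 and 4.06. COL3A1, DCN, LUM and PDGFRB were at most 0.256 FPKM in CTRL OT.

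OT and the cholesterol genes went different ways in the 2 lines. In HCC4006 CTRL cells OT lowered nearly the whole synthesis pathway, from ACAT2 to DHCR7, and INSIG1 with it. In PC9 CTRL cells the same treatment left these enzymes near their DMSO level or raised them, with PMVK and LBR as the exceptions that fell. Among the 32 genes tested in HCC4006 CTRL cells, 6 rose and 22 fell with OT, with a median log2 difference of -0.79 against 0.09 over all genes. Of all genes tested, 81.6% were called, 45% higher and 36.6% lower. With all libraries rescaled to 1 common sum the split was 10 higher and 20 lower, and the median of all genes moved from 0.09 to 0.28. Among the 6 that rose, ABCA1, ABCG1 and NPC1L1 reached 1 FPKM in OT groups alone, through which they passed the filter of 1 FPKM or more in at least 3 libraries. In PC9 CTRL cells 14 of the 29 genes tested rose and 5 fell, with a median of 0.12 against -0.04. There 73% of all genes were called, 32% higher and 40.9% lower, so the members' share of calls was below that of all genes. The 20 synthesis enzymes split more sharply: in PC9 OT raised 11 and lowered 2, and in HCC4006 it raised 1 and lowered 17. Fewer cells of a kind and less RNA per cell cannot be told apart in such bulk libraries.

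YAP1 KO cells differed most in PC9. Under DMSO, PC9 YAP1 KO cells held less mRNA of 16 of the 20 enzymes than CTRL cells, of the others none was higher, and the regulator INSIG1 stood at 25.1% of the CTRL level. Over the 29 genes tested 2 were higher and 21 lower, with a median log2 difference of -0.45 against 0.01 for all genes, of which 39.9% were called (19.8% higher, 20.0% lower). Among the 2 higher was ABCA1 (0.20), below 1 FPKM in both DMSO groups, whose call was lost on leaving out any of 5 libraries. Under OT 3 were higher and 23 lower, including all 20 enzymes and, among the 3 higher, ABCA1, which passed the filter through PC9 YAP1 KO OT alone, with a median of -0.76, beside 53.7% of all genes (28.5% higher, 25.2% lower). In HCC4006 under DMSO 1 of 32 was higher and 5 were lower, a share near the 17.8% of all genes called (9.20% higher, 8.65% lower). That count was 2 without HCC4006 CTRL DMSO replicate 3 or HCC4006 YAP1 KO DMSO replicate 3 and 3 without HCC4006 YAP1 KO DMSO replicate 1, and its split was 3 higher and 3 lower with all libraries rescaled to 1 common sum. Under OT 8 were higher and 14 lower in HCC4006, beside 43.6% of all genes (27.2% higher, 16.4% lower), with 12 of the lower genes among the enzymes. Among these 8 was ABCG1, which passed the filter through HCC4006 YAP1 KO OT alone, so its higher call was favoured by the filter. Within a line these comparisons share libraries, so their counts are not independent.

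**Figure D1:**
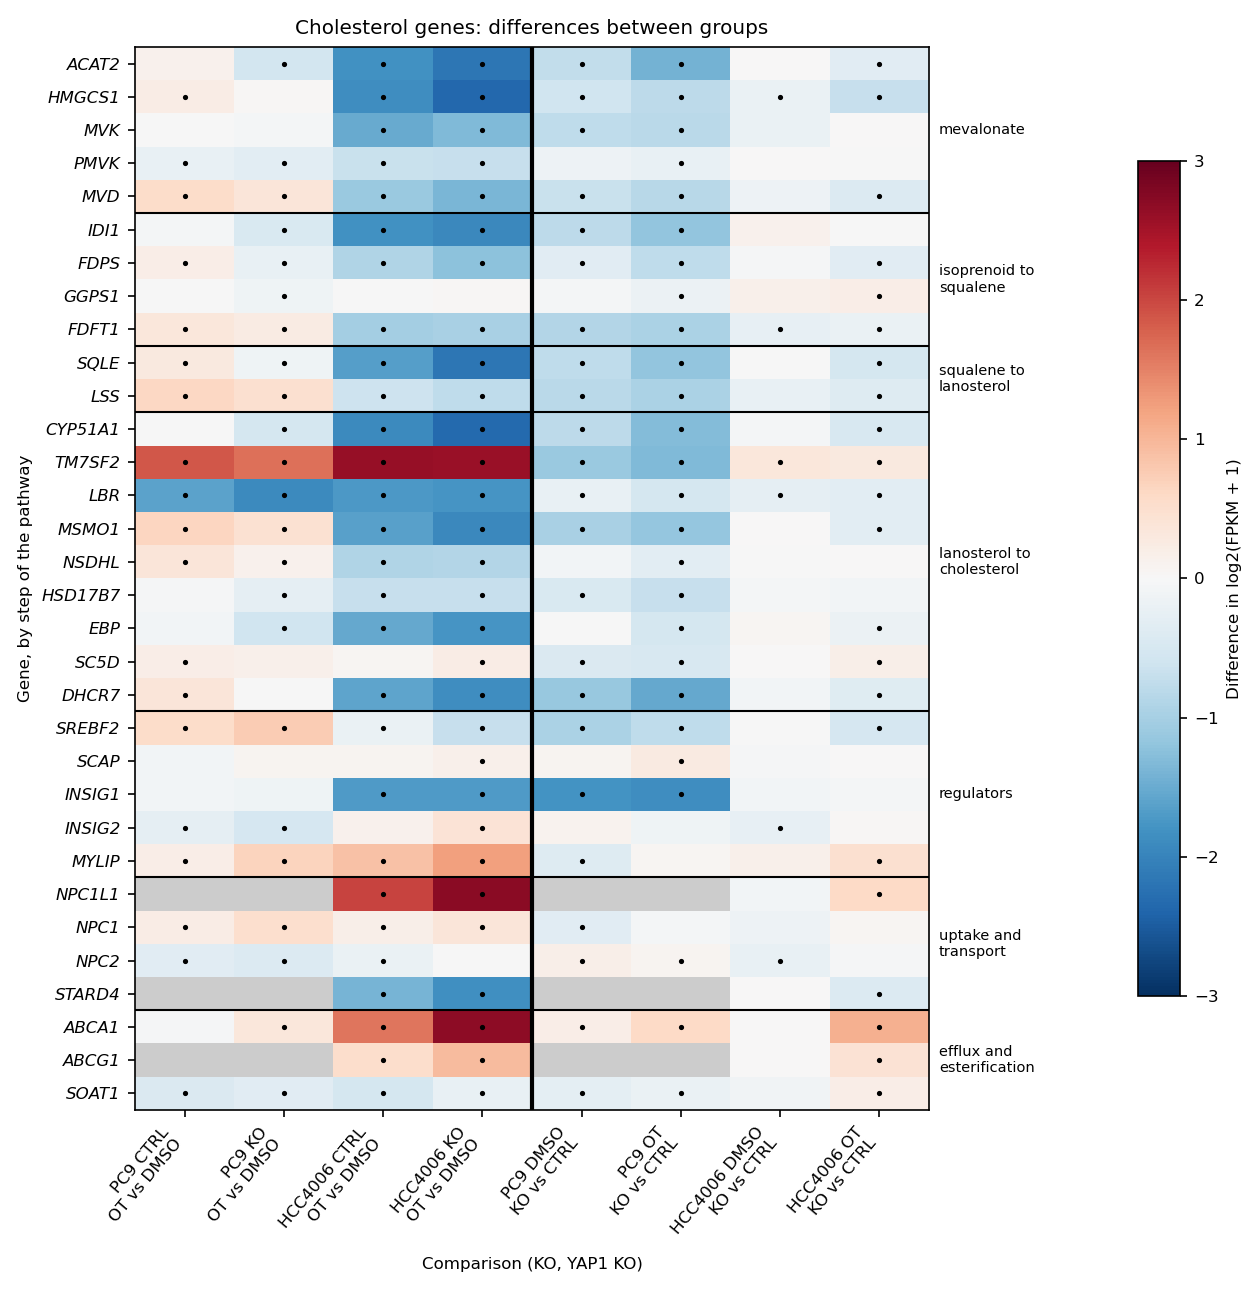
Log2 differences of the 32 genes (rows, by step of the pathway) in the 4 OT comparisons (left) and the 4 YAP1 KO comparisons (right), with red for higher, blue for lower, grey for not tested and a black dot for called. The HCC4006 OT columns are blue through the enzymes except TM7SF2 (red) and GGPS1 and SC5D (pale), and the PC9 YAP1 KO columns are blue where the HCC4006 column under DMSO is nearly white.

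INSIG1, the INSIG gene that SREBP2 itself switches on, showed the contrast most plainly. INSIG1 in PC9 CTRL cells measured 18.97, 18.1 and 22.7 FPKM under DMSO and 17.7, 18.2 and 19.8 under OT, which overlap. PC9 YAP1 KO cells had 5.24, 4.21 and 5.52 FPKM of INSIG1 under DMSO and 4.51, 4.30 and 4.42 under OT, below every CTRL library. The log2 difference between genotypes was -1.80 (SE 0.090, limma adjusted p = 4.05e-08) under DMSO and -1.86 (SE 0.090, limma adjusted p = 1.59e-08) under OT, and OT changed it by -0.09 in CTRL cells (95% interval -0.29 to 0.11), which was not called. INSIG1 in HCC4006 CTRL cells fell from 34.4, 33.2 and 37.5 FPKM to 9.32, 9.68 and 11.05, a log2 difference of -1.71 (SE 0.077, limma adjusted p = 7.35e-10). HCC4006 YAP1 KO cells had 33.4, 34.8 and 30.5 FPKM under DMSO and 9.86, 8.56 and 9.95 under OT, ranges that overlapped those of CTRL cells under each treatment. INSIG1 thus fell with OT in HCC4006 and with genotype in PC9, and the line difference was -1.62 for the OT response and 1.71 for the YAP1 KO difference under DMSO, both called.

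SREBF2, the gene of SREBP2, rose with OT in PC9. Its levels in PC9 CTRL cells were 21.6, 22.9 and 23.6 FPKM under DMSO and 35.1, 32.6 and 33.6 under OT, and in YAP1 KO cells 11.5, 11.2 and 10.9 and 18.98, 19.3 and 20.1. No 2 of these 4 groups overlapped. OT gave a log2 difference of 0.55 (SE 0.041, limma adjusted p = 1.29e-07) in CTRL cells and 0.75 in YAP1 KO cells, and YAP1 KO one of -0.96 (SE 0.041, limma adjusted p = 1.37e-08) under DMSO and -0.76 under OT. SREBF2 in HCC4006 read 16.6, 16.1 and 16.03 FPKM in CTRL DMSO, 16.2, 13.5 and 12.97 in CTRL OT, 16.3, 15.5 and 16.9 in YAP1 KO DMSO and 9.66, 9.78 and 9.42 in YAP1 KO OT. The last group lay below all others, at a log2 difference of -0.51 from CTRL OT, while the first 3 overlapped, CTRL OT through replicate 1 alone (16.2 FPKM). The HCC4006 CTRL difference with OT was -0.19 and passed the test by little (limma adjusted p = 0.0226). It was not called without HCC4006 CTRL DMSO replicate 1 or HCC4006 CTRL OT replicates 2 or 3 (log2 difference -0.17 to -0.13), and was 0.02 with all libraries rescaled to 1 common sum. The OT response of SREBF2 in HCC4006 was lower in YAP1 KO than in CTRL cells, by -0.51 (SE 0.097, limma adjusted p = 0.00346).

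SREBF2 carries in its own promoter the site its product is known to bind. The DNA upstream of 6 genes is shown, picked by name from those whose OT or YAP1 KO differences parted between the 2 lines. Where a gene had several windows, the one with the most matches was taken. All 6 hold a marked box, so they do not stand for the whole list. The stretches come from RefSeq (GRCh38.p14), lie upstream of a start of transcription listed there, and run 5′ to 3′ on the strand of the gene. Capitals mark the sterol element TCACCCCAC and the NF-Y box CCAAT, which reads ATTGG on the other strand. Each name gives the gene, its place and its strand.
SREBF2 chr22:41832955-41833024 plus strand: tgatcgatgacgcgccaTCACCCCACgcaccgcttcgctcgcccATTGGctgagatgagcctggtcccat
INSIG1 chr7:155297688-155297757 plus strand: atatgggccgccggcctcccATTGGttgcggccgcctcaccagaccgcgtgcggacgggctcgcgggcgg
HMGCS1 chr5:43313493-43313582 minus strand: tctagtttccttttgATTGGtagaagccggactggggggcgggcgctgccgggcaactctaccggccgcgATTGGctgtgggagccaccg
MSMO1 chr4:165327519-165327639 plus strand: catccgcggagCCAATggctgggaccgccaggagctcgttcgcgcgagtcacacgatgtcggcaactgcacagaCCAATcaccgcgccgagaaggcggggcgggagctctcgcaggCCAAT
DHCR7 chr11:71448424-71448503 minus strand: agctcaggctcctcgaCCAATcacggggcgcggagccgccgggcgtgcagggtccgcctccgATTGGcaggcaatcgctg
TM7SF2 chr11:65111752-65111821 plus strand: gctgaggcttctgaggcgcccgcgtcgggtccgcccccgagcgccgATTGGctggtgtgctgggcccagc

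A promoter window was found for 28 of the 32 genes. Searched on both strands, TCACCCCAC occurred in the window of SREBF2 alone among them and in 0.43% of all 35116 windows. The shorter TCACNCCAC, which overlaps it, was also found in SREBF2 alone (1.13% of all windows), and CACCCCAC in SREBF2 and ABCA1 (2.79%). CCAAT was present in 23 of the 37 windows of the 28 genes (21 genes), beside 34.6% of all windows. CYP51A1 and LBR, not shown above, were among the genes with a window but no CCAAT. A match is a description of these letters, and elements with other letters were not searched.

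**Figure D2:**
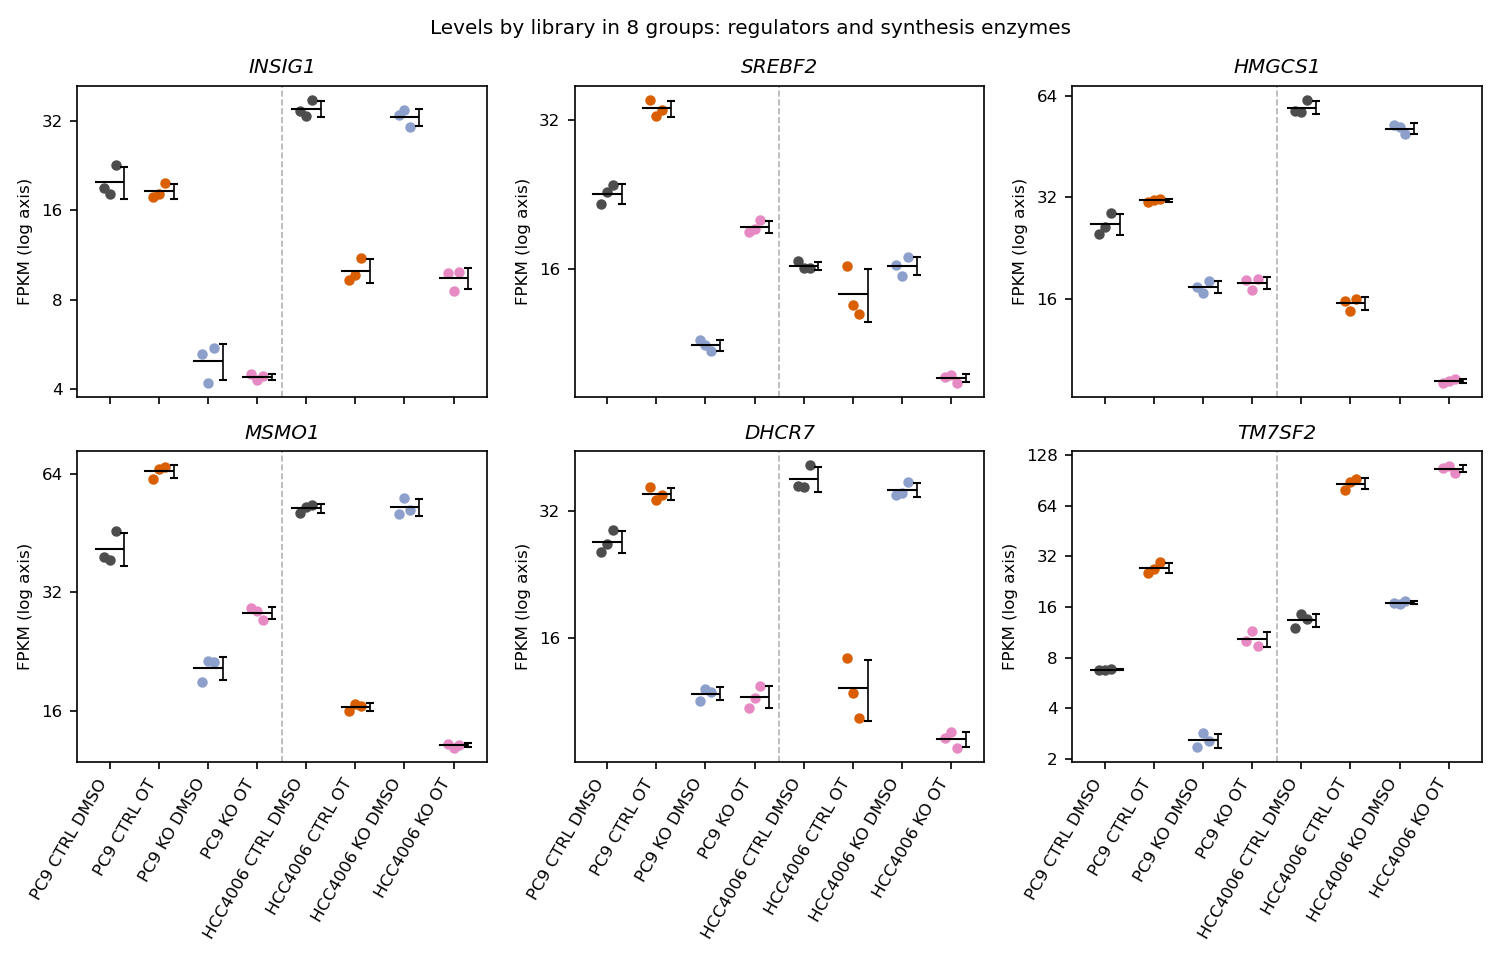
FPKM of 6 genes on a log axis in the 8 groups; each point is a library, the long bar the mean and the error bar the SD of 3 libraries. INSIG1, HMGCS1, MSMO1 and DHCR7 drop with OT in HCC4006 and with YAP1 KO in PC9, and TM7SF2 rises with OT in every group pair.

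INSIG2, the INSIG gene whose expression does not depend on SREBP2, did not share the pattern of INSIG1. In PC9 it measured 18.5, 17.2 and 19.9 FPKM in CTRL DMSO, 14.3, 14.2 and 17.1 in CTRL OT, 19.7, 20.1 and 19.8 in YAP1 KO DMSO and 14.9, 13.3 and 12.8 in YAP1 KO OT. The OT libraries lay below the DMSO libraries of their genotype, at a log2 difference of -0.27 and -0.51, and the genotypes overlapped under each treatment. HCC4006 had 16.1, 16.4 and 18.3, 17.6, 19.7 and 18.9, 13.6, 15.3 and 13.6 and 20.05, 17.8 and 19.8 FPKM in the same order of groups. There OT raised INSIG2 in YAP1 KO cells (0.41) from the lowest group. The YAP1 KO difference under DMSO (-0.24) was not called without HCC4006 CTRL DMSO replicate 3 or HCC4006 YAP1 KO DMSO replicates 1 or 3 (log2 difference -0.22 to -0.19). SCAP, the escort protein, was higher in PC9 YAP1 KO OT (15.2, 15.5 and 16.3 FPKM) than in PC9 CTRL OT (13.4, 13.2 and 11.7 FPKM), at a log2 difference of 0.27, and all HCC4006 libraries lay between 4.43 and 5.84 FPKM.

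MYLIP, which marks lipoprotein receptors for degradation, rose with OT in HCC4006. Its levels were 0.826, 0.850 and 0.876 FPKM in CTRL DMSO, 2.77, 2.29 and 2.26 in CTRL OT, 0.942, 1.20 and 1.01 in YAP1 KO DMSO and 3.66, 3.78 and 3.93 in YAP1 KO OT. OT gave 2.87-fold and 3.60-fold the DMSO level, with log2 differences of 0.89 (SE 0.071, limma adjusted p = 1.62e-07) and 1.23, and the OT groups of the 2 genotypes did not overlap (0.48). In PC9 the same 4 groups read 5.71, 4.51 and 4.90, 5.92, 5.58 and 6.36, 3.47, 3.83 and 3.46 and 6.03, 6.03 and 6.71 FPKM. PC9 YAP1 KO cells stood below CTRL cells under DMSO (-0.39) and overlapped them under OT, and OT raised the level in YAP1 KO cells (0.66). The PC9 CTRL difference with OT (0.21) had overlapping groups and was not called without PC9 CTRL DMSO replicates 2 or 3 or PC9 CTRL OT replicates 1 or 3 (log2 difference 0.14 to 0.21). MYLIP passed the filter in HCC4006 through 3 of 4 groups, so a difference there was partly required.

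The mevalonate enzymes open the pathway. ACAT2, which joins acetyl-CoA units, measured 87.9, 93.7 and 86.3 FPKM in HCC4006 CTRL DMSO and 21.7, 26.3 and 26.4 in CTRL OT. HCC4006 YAP1 KO cells had 90.8, 88.4 and 91.05 FPKM under DMSO and 19.3, 19.03 and 19.6 under OT, the lowest of the line. OT left 27.8% of the DMSO level in CTRL cells (log2 difference -1.81 (SE 0.065, limma adjusted p = 8.78e-11)) and 21.4% in YAP1 KO cells. In PC9 the groups read 41.1, 38.9 and 44.7, 43.9, 45.4 and 46.2, 24.1, 24.2 and 25.2 and 17.3, 15.4 and 16.5 FPKM in the same order. OT did not change ACAT2 in PC9 CTRL cells by a called amount (0.12, 95% interval 0.01 to 0.23) and lowered it in YAP1 KO cells (-0.55), a difference of responses of -0.67 (SE 0.073, limma adjusted p = 4.37e-05). Exons of SOD2-OT1 and SOD2 on the other strand cover 45.8% and 34.8% of the exon bases of ACAT2 in GENCODE, and the sources used here do not say whether the counting used strand.

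HMGCS1, which makes HMG-CoA, had 57.6, 57.5 and 62.2 FPKM in HCC4006 CTRL DMSO, 15.8, 14.7 and 16.02 in CTRL OT, 52.6, 51.9 and 49.2 in YAP1 KO DMSO and 9.03, 9.16 and 9.28 in YAP1 KO OT. All OT libraries lay below all DMSO libraries, and those of YAP1 KO cells lay lowest. OT left 26.2% of the level in CTRL cells (-1.86 (SE 0.048, limma adjusted p = 5.21e-12)) and 17.9% in YAP1 KO cells. In PC9 it measured 24.9, 26.2 and 28.7 FPKM in CTRL DMSO, 30.99, 31.5 and 31.7 in CTRL OT, 17.3, 16.7 and 18.1 in YAP1 KO DMSO and 18.2, 17.00 and 18.3 in YAP1 KO OT. Here the genotypes separated and OT moved CTRL cells up by a log2 difference of 0.23, a called difference in the opposite direction to HCC4006. The HCC4006 YAP1 KO difference under DMSO (-0.20) was not called without HCC4006 CTRL DMSO replicate 3 or HCC4006 YAP1 KO DMSO replicate 3 (log2 difference -0.17 to -0.16).

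MVK and MVD phosphorylate and decarboxylate mevalonate. MVK fell with OT in HCC4006, from 11.3, 12.9 and 10.96 to 3.53, 3.29 and 3.56 FPKM in CTRL cells and from 9.86, 10.7 and 9.96 to 3.40, 3.09 and 3.96 in YAP1 KO cells. In PC9 MVK had 11.2, 13.1 and 11.9 FPKM in CTRL DMSO, 12.04, 11.7 and 11.9 in CTRL OT, 6.23, 7.46 and 6.54 in YAP1 KO DMSO and 6.29, 6.65 and 6.27 in YAP1 KO OT. In PC9 MVK was called between genotypes, at -0.76 (SE 0.063, limma adjusted p = 2.45e-06) under DMSO and -0.80 under OT, and not between treatments. In HCC4006 it was called between treatments, at -1.51 and -1.32, and not between genotypes. MVD ran from 29.4, 27.98 and 29.98 FPKM in PC9 CTRL DMSO up to 45.1, 41.4 and 42.1 in CTRL OT, and from 18.2, 17.3 and 18.6 to 24.1, 23.4 and 22.8 in YAP1 KO cells. In HCC4006 MVD went down instead, from 24.3, 26.3 and 23.95 to 10.2, 11.97 and 10.9 in CTRL cells and from 20.97, 21.5 and 24.2 to 8.63, 7.15 and 8.18 in YAP1 KO cells. The MVD log2 difference with OT was thus 0.54 (SE 0.042, limma adjusted p = 1.97e-07) in PC9 CTRL cells and -1.11 (SE 0.078, limma adjusted p = 4.87e-08) in HCC4006 CTRL cells. PMVK, the kinase between them, lay between 22.3 to 25.3 FPKM in PC9 YAP1 KO OT and 31.4 to 34.7 in PC9 CTRL DMSO, and between 33.4 to 40.8 and 57.4 to 62.9 in the HCC4006 CTRL groups under OT and DMSO. It fell with OT in all 4 line and genotype pairs (log2 differences -0.23, -0.31, -0.67 and -0.70).

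The next enzymes make and join the isoprenoid units. IDI1, the isomerase, had 60.96, 64.2 and 65.3 FPKM in HCC4006 CTRL DMSO, 16.1, 17.7 and 18.3 in CTRL OT, 70.2, 72.6 and 64.4 in YAP1 KO DMSO and 16.7, 17.3 and 17.7 in YAP1 KO OT. Genotypes overlapped under each treatment and OT left 27.3% and 25.0% of the DMSO level. The PC9 groups read 45.4, 43.8 and 45.8, 41.4, 42.5 and 45.7, 26.1, 24.7 and 25.9 and 20.4, 17.6 and 17.7 FPKM, and there the YAP1 KO libraries lay below CTRL under both treatments (-0.79 and -1.18). FDPS, which makes farnesyl diphosphate, measured 136, 135 and 139 FPKM in PC9 CTRL DMSO, 153, 151 and 166 in CTRL OT, 109, 108 and 106 in YAP1 KO DMSO and 88.8, 92.5 and 94.1 in YAP1 KO OT. It rose with OT in PC9 CTRL cells (0.19 (SE 0.035, limma adjusted p = 3.2e-04)) and fell in PC9 YAP1 KO cells (-0.23 (SE 0.035, limma adjusted p = 7.45e-05)), and the difference of those responses was called (-0.42 (SE 0.050, limma adjusted p = 8.12e-05)). HCC4006 had 187, 194 and 188, 90.8, 104 and 107, 187, 182 and 189 and 76.2, 81.04 and 78.7 FPKM of FDPS, with OT below DMSO in both genotypes (-0.91 and -1.23). Exons of the antisense gene RUSC1-AS1 cover 28.9% of the FDPS exon bases, so the same limit on strand applies.

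GGPS1 and FDFT1 sit where the pathway branches, GGPS1 toward the geranylgeranyl groups of prenylated proteins and FDFT1, squalene synthase, toward sterols. GGPS1 barely moved: 24.01, 23.8 and 24.6 FPKM in PC9 CTRL DMSO, 21.99, 24.4 and 25.1 in CTRL OT, 23.3, 21.6 and 24.2 in YAP1 KO DMSO and 20.4, 21.5 and 20.98 in YAP1 KO OT. The HCC4006 values were 23.9, 24.5 and 25.4, 21.3, 26.2 and 26.2, 27.4, 27.7 and 27.1 and 30.5, 27.4 and 26.9 FPKM, and no OT difference was called there (-0.01 in CTRL cells, 95% interval -0.17 to 0.15). GGPS1 shares 11.3% of its exon bases with TBCE on the same strand. FDFT1, at the sterol branch, had 129.7, 135 and 132 FPKM in HCC4006 CTRL DMSO and 56.8, 67.9 and 68.6 in CTRL OT, and 107, 115 and 112 and 57.8, 54.5 and 56.04 in YAP1 KO cells. In PC9 it measured 109, 108 and 119.6 FPKM in CTRL DMSO, 142, 137 and 147 in CTRL OT, 60.4, 59.2 and 63.9 in YAP1 KO DMSO and 75.04, 73.05 and 69.6 in YAP1 KO OT. FDFT1 fell with OT in HCC4006 (-1.03 (SE 0.064, limma adjusted p = 1.37e-08) in CTRL cells) and rose in PC9 (0.33), and PC9 YAP1 KO cells had 54.4% of the CTRL level under DMSO (-0.87).

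Squalene becomes lanosterol through SQLE, the epoxidase and a rate-limiting step, and LSS, the cyclase. SQLE in HCC4006 read 23.1, 23.9 and 25.3 FPKM in CTRL DMSO, 6.47, 7.49 and 7.01 in CTRL OT, 23.4, 24.9 and 23.5 in YAP1 KO DMSO and 4.28, 5.26 and 4.15 in YAP1 KO OT. OT made it 3.44-fold lower in CTRL cells (-1.65 (SE 0.075, limma adjusted p = 7.68e-10)) and 5.25-fold lower in YAP1 KO cells, and the YAP1 KO OT libraries lay lowest. In PC9 SQLE read 24.9, 23.5 and 26.3, 31.1, 30.7 and 30.1, 13.8, 14.3 and 14.6 and 13.4, 12.95 and 12.5 FPKM, with a rise in CTRL cells (0.29). The fall with OT in PC9 YAP1 KO cells (-0.13) was not called without PC9 YAP1 KO DMSO replicate 3 or PC9 YAP1 KO OT replicate 3 (log2 difference -0.11 to -0.10). LSS measured 8.37, 8.24 and 8.32 FPKM in PC9 CTRL DMSO, 13.5, 12.7 and 13.8 in CTRL OT, 4.42, 4.79 and 3.82 in YAP1 KO DMSO and 6.59, 6.32 and 6.53 in YAP1 KO OT. It was 1.61-fold higher with OT in PC9 CTRL cells, and YAP1 KO cells stood at 52.3% and 48.5% of the CTRL level under the 2 treatments. HCC4006 had 14.5, 14.7 and 14.5, 10.8, 8.93 and 7.99, 11.9, 12.9 and 12.4 and 6.26, 7.36 and 6.88 FPKM of LSS, and OT lowered it in both genotypes (-0.61 and -0.77).

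Lanosterol is trimmed to cholesterol by the remaining 9 enzymes. CYP51A1, which removes the first methyl group, had 36.4, 36.8 and 40.1 FPKM in HCC4006 CTRL DMSO, 9.18, 9.23 and 9.80 in CTRL OT, 38.1, 36.7 and 34.2 in YAP1 KO DMSO and 6.55, 6.62 and 6.05 in YAP1 KO OT. OT left 24.9% of the CTRL level (-1.90 (SE 0.056, limma adjusted p = 1.6e-11)), the largest fall on the log2 scale among the enzymes of these CTRL cells. The PC9 groups read 23.7, 24.3 and 26.7, 24.6, 24.2 and 24.8, 14.4, 14.5 and 13.3 and 9.69, 9.21 and 9.38 FPKM, overlapping in the 2 CTRL groups and lower in YAP1 KO cells, most under OT (38.4% of CTRL). MSMO1, the methylsterol oxidase, measured 39.5, 38.6 and 45.9 FPKM in PC9 CTRL DMSO, 62.3, 66.01 and 66.8 in CTRL OT, 18.97, 21.4 and 21.3 in YAP1 KO DMSO and 29.2, 28.7 and 27.3 in YAP1 KO OT. In HCC4006 it read 50.9, 52.9 and 53.3, 15.98, 16.7 and 16.5, 50.7, 55.8 and 51.9 and 13.2, 12.9 and 13.1 FPKM. MSMO1 rose 1.57-fold with OT in PC9 CTRL cells and fell to 31.3% in HCC4006 CTRL cells, the widest gap between the lines among all 32 genes on the log2(FPKM + 1) scale (difference of responses -2.26 (SE 0.079, limma adjusted p = 5.71e-15)). That scale shrinks low genes, and as ratios of mean FPKM the gap was wider for ABCA1 (8.87 in HCC4006 and 0.929 in PC9) and ABCG1 (6.13 and 0.439).

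DHCR7 reduces the last double bond of one arm of the pathway. Its levels in PC9 were 25.6, 26.8 and 28.8 FPKM in CTRL DMSO, 36.5, 34.1 and 34.96 in CTRL OT, 11.3, 12.1 and 11.9 in YAP1 KO DMSO and 10.9, 11.5 and 12.3 in YAP1 KO OT. HCC4006 gave 36.8, 36.5 and 41.2, 14.3, 11.8 and 10.3, 34.96, 35.3 and 37.6 and 9.20, 9.51 and 8.75 FPKM. Genotypes did not overlap in PC9, where YAP1 KO cells had 43.4% of the CTRL level under DMSO (-1.14 (SE 0.052, limma adjusted p = 1.92e-08)) and 32.9% under OT. In HCC4006 they overlapped under DMSO and parted under OT (-0.36), after a fall with OT of -1.59 in CTRL cells. EBP, the sterol isomerase, stood at 51.8, 49.7 and 49.2 FPKM in PC9 CTRL DMSO, 45.2, 46.4 and 49.8 in CTRL OT, 48.3, 50.5 and 50.6 in YAP1 KO DMSO and 33.02, 33.2 and 31.6 in YAP1 KO OT. Its YAP1 KO OT libraries were alone below the other 3 PC9 groups, at a difference of responses of -0.50 (SE 0.055, limma adjusted p = 4.42e-05). In HCC4006 EBP had 79.8, 85.5 and 82.5, 25.00, 29.4 and 29.3, 87.1, 84.98 and 86.98 and 23.9, 25.7 and 24.5 FPKM, and OT left 33.8% in CTRL cells.

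A pair of enzymes carries out the same sterol reduction after CYP51A1, and they moved in opposite directions with OT in both lines. TM7SF2, the reductase of the endoplasmic reticulum, measured 6.73, 6.74 and 6.83 FPKM in PC9 CTRL DMSO, 25.6, 26.9 and 29.6 in CTRL OT, 2.34, 2.83 and 2.55 in YAP1 KO DMSO and 10.1, 11.5 and 9.38 in YAP1 KO OT. In HCC4006 it read 12.01, 14.5 and 13.5, 79.8, 88.3 and 92.3, 16.8, 16.7 and 17.4 and 108, 111 and 101 FPKM. OT raised it 4.04-fold in PC9 and 6.51-fold in HCC4006 CTRL cells (1.87 (SE 0.073, limma adjusted p = 3.8e-10) and 2.62 (SE 0.070, limma adjusted p = 7.06e-12)). YAP1 KO cells had less of it than CTRL cells in PC9 (38.0% under DMSO) and more in HCC4006 (127%, log2 difference 0.33 (SE 0.070, limma adjusted p = 0.00694)). LBR, a nuclear envelope protein with the same activity, had 45.9, 47.8 and 45.1 FPKM in PC9 CTRL DMSO, 14.4, 14.1 and 15.1 in CTRL OT, 40.03, 38.5 and 38.9 in YAP1 KO DMSO and 10.9, 8.63 and 9.89 in YAP1 KO OT. The HCC4006 groups had 27.2, 25.9 and 29.6, 7.58, 7.61 and 7.80, 23.9, 23.8 and 20.6 and 6.42, 5.47 and 6.16 FPKM. LBR fell with OT to 31.4% and 27.8% of the DMSO level in the CTRL cells of PC9 and HCC4006, so that in both lines mean LBR exceeded mean TM7SF2 under DMSO and TM7SF2 exceeded LBR under OT, on the FPKM scale. In PC9 YAP1 KO OT the 2 means were closest, at 9.81 ± 1.15 and 10.3 ± 1.07 FPKM (SD, n = 3).

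The other 3 enzymes of this stretch are NSDHL, HSD17B7 and SC5D. NSDHL, the decarboxylase, rose with OT in PC9 CTRL cells from a range of 37.1 to 39.98 FPKM to 48.9 to 49.6 (0.36) and fell in HCC4006 CTRL cells from 63.2 to 67.5 to 33.5 to 35.9 (-0.90). HSD17B7, a ketosteroid reductase, had 7.49 to 8.26 FPKM in PC9 CTRL DMSO and 5.15 to 6.15 in YAP1 KO DMSO (-0.45), and went from 14.7 to 15.99 to 8.54 to 9.60 with OT in HCC4006 CTRL cells (-0.68). The row of its pseudogene HSD17B7P2 averaged 2.95 FPKM, and the sources used here do not say how shared reads were counted. SC5D, the sterol desaturase, was not called with OT in HCC4006 CTRL cells, where its ranges were 10.6 to 11.4 FPKM under DMSO and 11.1 to 11.6 under OT (0.05, 95% interval -0.07 to 0.16). In PC9 its YAP1 KO libraries were lower under DMSO (3.68 to 4.14 against 5.12 to 6.49 FPKM, -0.44).

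**Figure D3:**
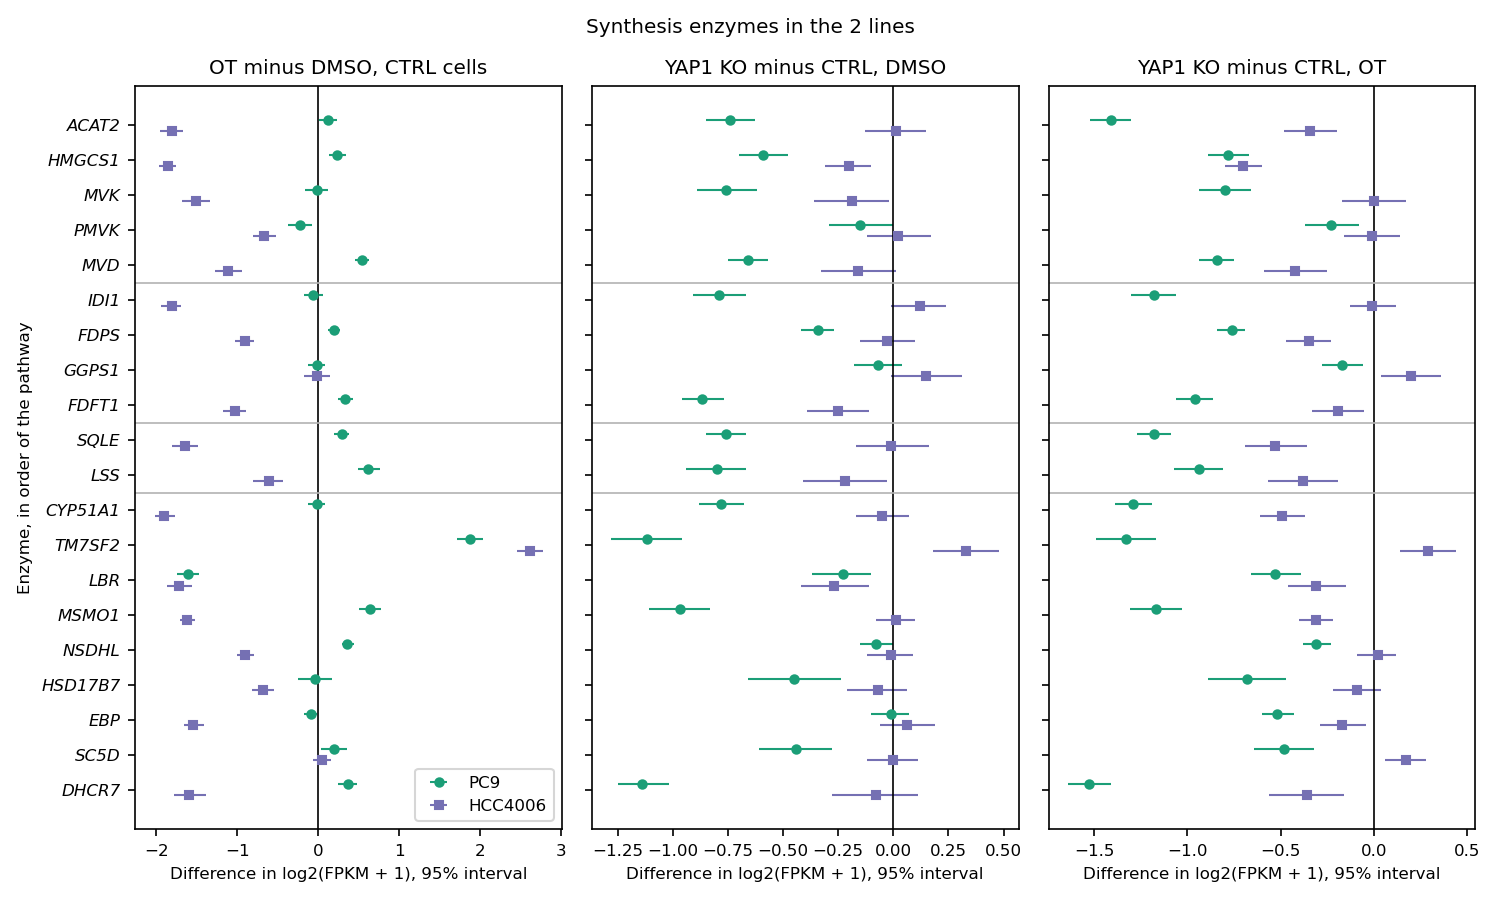
Log2 differences of the 20 synthesis enzymes (rows, in pathway order) with 95% intervals in PC9 (circles) and HCC4006 (squares), for OT in CTRL cells and for YAP1 KO under DMSO and under OT. HCC4006 lies left of PC9 for most enzymes with OT, and PC9 lies left of HCC4006 for most in the YAP1 KO panels.

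In HCC4006 the export genes ABCA1 and ABCG1 were higher under OT, where most synthesis enzymes were lower. Both passed the filter there through OT groups alone, so that rise is given as a description. ABCA1, which loads cholesterol onto lipoproteins, measured 0.336, 0.323 and 0.412 FPKM in HCC4006 CTRL DMSO, 3.57, 2.80 and 3.13 in CTRL OT, 0.346, 0.401 and 0.321 in YAP1 KO DMSO and 7.88, 7.87 and 7.26 in YAP1 KO OT. OT raised it 8.87-fold in CTRL and 21.5-fold in YAP1 KO cells, whose OT libraries all stood above those of CTRL cells (1.06 (SE 0.072, limma adjusted p = 3.97e-07)), and the responses differed by 1.06 (SE 0.102, limma adjusted p = 3.06e-05). In PC9 ABCA1 was 0.471, 0.570 and 0.659 FPKM in CTRL DMSO, 0.461, 0.603 and 0.516 in CTRL OT, 0.796, 0.731 and 0.858 in YAP1 KO DMSO and 1.42, 1.19 and 1.27 in YAP1 KO OT. The last group was the highest of PC9, and the only one at 1 FPKM or more, through which the gene passed the filter, so that its differences from the other PC9 groups were favoured by the filter and are given as a description. The YAP1 KO difference under OT was 0.59, and that under DMSO (0.20) was not called without PC9 CTRL DMSO replicates 1 or 2 or PC9 YAP1 KO DMSO replicates 1, 2 or 3 (log2 difference 0.15 to 0.22).

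ABCG1, the partner pump, had 0.0670, 0.0655 and 0.154 FPKM in HCC4006 CTRL DMSO, 0.570, 0.696 and 0.490 in CTRL OT, 0.177, 0.0893 and 0.0748 in YAP1 KO DMSO and 1.14, 1.08 and 1.23 in YAP1 KO OT. It rose in the same 2 comparisons (0.53 and 0.95), and the OT libraries of YAP1 KO cells all stood above those of CTRL cells. In PC9 it was too low to test, at 0.0425, 0.0864 and 0.0840 FPKM in CTRL DMSO, 0.0397, 0 and 0.0538 in CTRL OT, 0.241, 0.317 and 0.254 in YAP1 KO DMSO and 0.265, 0.337 and 0.247 in YAP1 KO OT. All PC9 YAP1 KO libraries nonetheless lay above all PC9 CTRL libraries. ABCA1 passed the filter in HCC4006 through both OT groups, so a difference from DMSO was required there. ABCG1 passed through YAP1 KO OT alone, so its higher level in that group, against DMSO and against CTRL cells, was favoured by the filter and is no result of the test. Among the 5 leukocyte markers summed above, CD68, a lysosomal protein, was at 20.9 to 23.7 FPKM in HCC4006 under DMSO and 81.5 to 108 under OT, and CD14, a monocyte receptor, was at 0.452 to 1.08 FPKM in CTRL and 0.731 to 0.949 in YAP1 KO cells under DMSO and at 1.18 to 1.85 and 2.03 to 2.43 under OT. PTPRC, the pan-leukocyte surface marker, and CD3E, of T cells, were at most 0.0516 and 0.0936 FPKM in the HCC4006 libraries.

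SOAT1, which stores cholesterol as esters, fell with OT in every pair. PC9 had 10.04, 10.04 and 9.63 FPKM in CTRL DMSO, 6.88, 7.28 and 7.20 in CTRL OT, 8.06, 7.62 and 8.13 in YAP1 KO DMSO and 6.17, 5.84 and 6.05 in YAP1 KO OT. HCC4006 had 11.03, 10.6 and 11.9, 7.42, 7.55 and 7.26, 10.3, 10.4 and 10.03 and 8.87, 8.37 and 8.51. YAP1 KO libraries were lower than CTRL in PC9 under both treatments (-0.29 and -0.21) and higher in HCC4006 under OT (0.19).

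NPC1L1, the uptake transporter of the intestine, was near 0 in PC9, where its highest library had 0.0721 FPKM. In HCC4006 it went from 0.128, 0.0998 and 0.151 FPKM in CTRL DMSO to 4.05, 3.46 and 3.33 in CTRL OT, and from 0.0709, 0.0306 and 0.0961 in YAP1 KO DMSO to 6.25, 5.96 and 5.75 in YAP1 KO OT. The OT libraries of YAP1 KO cells all exceeded those of CTRL cells (0.60 (SE 0.068, limma adjusted p = 2.65e-05)), and the OT response was larger by 0.68 (SE 0.096, limma adjusted p = 4.74e-04). It passed the filter through the 2 OT groups, where it had to differ from DMSO.

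NPC1 and NPC2 carry cholesterol out of the lysosome. NPC1 had 3.74, 4.09 and 4.58 FPKM in PC9 CTRL DMSO, 5.71, 4.69 and 4.54 in CTRL OT, 2.94, 3.31 and 2.99 in YAP1 KO DMSO and 4.77, 4.67 and 4.81 in YAP1 KO OT, and rose with OT in the YAP1 KO cells (0.50). HCC4006 had 5.82, 5.42 and 5.53, 7.09, 6.21 and 5.96, 5.25, 4.89 and 4.74 and 6.81, 6.81 and 6.52 FPKM, with a rise in YAP1 KO cells of 0.37. NPC2 was the most abundant of the 32 genes in PC9, at 651, 647 and 672 FPKM in CTRL DMSO, 522, 512 and 537 in CTRL OT, 730.4, 725 and 759 in YAP1 KO DMSO and 545, 570.0 and 559.5 in YAP1 KO OT. OT left 79.8% of its level in CTRL cells. In HCC4006 NPC2 read 199.6, 209 and 201, 155, 187 and 188, 173, 173 and 174 and 169, 171 and 174 FPKM. The YAP1 KO OT libraries overlapped YAP1 KO DMSO, and the CTRL difference with OT (-0.21) was 0.02 with all libraries rescaled to 1 common sum.

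STARD4, a sterol carrier of the cytosol, had 6.99, 5.68 and 7.31 FPKM in HCC4006 CTRL DMSO, 2.14, 1.62 and 1.96 in CTRL OT, 7.31, 7.03 and 5.95 in YAP1 KO DMSO and 1.08, 1.34 and 1.14 in YAP1 KO OT. OT left 28.6% and 17.5% of the DMSO level (-1.40 (SE 0.101, limma adjusted p = 6.14e-08) in CTRL cells), and the YAP1 KO OT libraries lay lowest (-0.41). In PC9 it was below the filter, with 0.253, 0.285 and 0.277 FPKM in CTRL DMSO, 0.210, 0.335 and 0.237 in CTRL OT, 0.0586, 0.0559 and 0.0720 in YAP1 KO DMSO and 0.0538, 0.0556 and 0.0233 in YAP1 KO OT. These PC9 genotypes did not overlap, although no test was made on them.

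**Figure D4:**
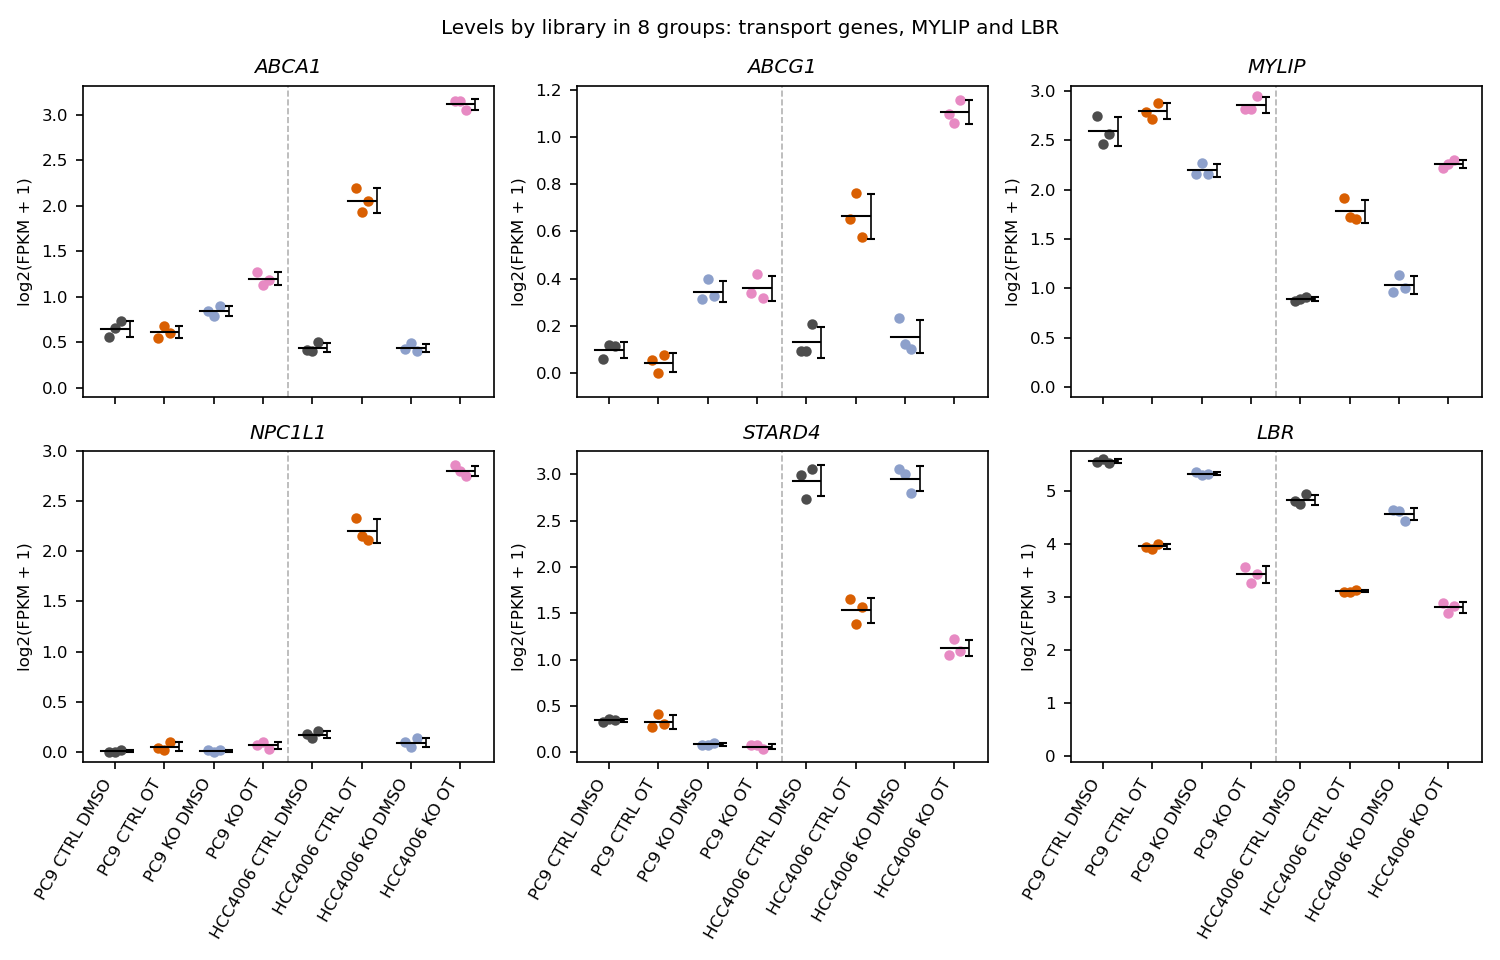
Levels of 6 genes as log2(FPKM + 1) in the 8 groups; each point is a library, the long bar the mean and the error bar the SD of 3 libraries. ABCA1, ABCG1, MYLIP and NPC1L1 stand highest, and STARD4 and LBR lowest, in HCC4006 YAP1 KO OT among the HCC4006 groups.

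Whether YAP1 KO changed the response to OT was tested as an interaction, the OT response of YAP1 KO cells minus that of CTRL cells. In PC9 YAP1 KO cells OT lowered several enzymes that it had left or raised in CTRL cells. The interaction was called for 13 of 29 genes in PC9, 3 higher and 10 lower with all 10 among the enzymes, beside 27% of all genes (13.2% higher, 13.8% lower). Rescaled to the same sum the split was 4 higher and 8 lower. On leaving out 1 library at a time the count ran from 10 to 14 over 12 fits. The calls of MVD, SREBF2 and LBR were lost in 8, 7 and 4 of those fits. ACAT2 (-0.67), CYP51A1 (-0.51), EBP (-0.50), SQLE (-0.42) and FDPS (-0.42) were the lowest log2 differences, and MYLIP (0.45) and ABCA1 (0.39) the highest, where the filter favoured a positive value for ABCA1, kept through PC9 YAP1 KO OT alone. The OT response itself, in PC9 YAP1 KO cells, was called higher for 10 and lower for 13 of 29 genes, beside 78.3% of all genes (36.9% higher, 41.4% lower), and for 13 and 10 when rescaled to the same sum. The 10 higher included ABCA1, whose call the filter favoured in the same way. In HCC4006 the interaction was called for 12 of 32 genes, 5 higher and 7 lower, beside 18.6% (10.5% higher, 8.18% lower), and 4 higher and 9 lower with median-of-ratios scaling. The 7 lower were SREBF2 and 6 enzymes, led by SQLE (-0.52) and HMGCS1 (-0.50), and the 5 higher were ABCA1, NPC1L1, ABCG1, MYLIP and SOAT1, of which ABCG1 passed the filter through YAP1 KO OT alone, which favoured a positive value. The MYLIP value (0.33) was not called without HCC4006 CTRL DMSO replicates 1, 2 or 3, HCC4006 CTRL OT replicates 2 or 3, HCC4006 YAP1 KO DMSO replicates 1 or 3 or HCC4006 YAP1 KO OT replicates 1, 2 or 3 (log2 difference 0.29 to 0.35). HCC4006 YAP1 KO cells responded to OT with 9 of 32 genes higher and 21 lower, beside 82.8% of all genes (46.4% higher, 36.5% lower). Among the 9 higher, ABCA1 and NPC1L1 reached 1 FPKM in OT groups alone and ABCG1 in YAP1 KO OT alone. The filter therefore required or favoured those calls.

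The lines were compared directly in 1 fit of the 24 libraries. HCC4006 CTRL cells under DMSO held more mRNA of most synthesis enzymes than PC9 CTRL cells: 15 of 20 enzymes were higher and MVD and LBR lower, and of the 32 genes 20 were higher and 7 lower, beside 82.6% of all genes (39.2% higher, 43.4% lower). HMGCS1 was 2.22-fold and ACAT2 2.15-fold higher, STARD4 averaged 6.66 FPKM against 0.272, and SCAP, MYLIP and NPC2 were at 37.3%, 16.9% and 30.9% of the PC9 level. STARD4 and NPC1L1, both among the 20 higher, reached 1 FPKM in HCC4006 libraries alone. They passed the filter through that line, so their calls are given as a description. The OT response of CTRL cells differed between lines for 25 genes, 6 higher and 19 lower in HCC4006, beside 65.3% (39.3% higher, 26% lower). Of the 6 higher, NPC1L1 and ABCG1 reached 1 FPKM in HCC4006 OT groups alone and ABCA1 there and in PC9 YAP1 KO OT, so their calls were favoured by the filter, and the other 3 were TM7SF2, INSIG2 and MYLIP. MSMO1 (-2.26), HMGCS1 (-2.10), DHCR7 (-1.95), SQLE (-1.94) and ACAT2 (-1.93) had the largest negative differences, while LBR (-0.11, 95% interval -0.32 to 0.09), GGPS1 (0.01, -0.18 to 0.21) and SC5D (-0.15, -0.34 to 0.04) were not called. The YAP1 KO difference under DMSO was higher in HCC4006, that is less negative or positive, for 19 genes and lower for 3, beside 29.4% of all genes (15.7% higher, 13.7% lower). INSIG1 (1.71), TM7SF2 (1.45) and DHCR7 (1.05) led. Under OT the YAP1 KO difference was higher for 23 and lower for 1, beside 42.4% (24.4% higher, 18% lower), again led by INSIG1 (1.78) and TM7SF2 (1.62), while HMGCS1 was not called (0.08, 95% interval -0.06 to 0.23). Among the 23, NPC1L1 (0.59) and ABCA1 (0.47) reached 1 FPKM in OT groups alone, NPC1L1 only in those of HCC4006. Both passed the filter through those groups, so their calls are given as a description.

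Other genes of lipid supply give the setting. Their counts are read against the share of all genes called, which was 73% and 81.6% with OT in the CTRL cells of PC9 and HCC4006 and 39.9% and 17.8% for YAP1 KO under DMSO. Of 14 fatty acid genes that SREBP factors drive, PC9 YAP1 KO cells under DMSO held more of 0 and less of 13, and OT raised 3 and lowered 8 in PC9 CTRL cells. Of the 13 tested in HCC4006, OT raised 3 and lowered 9 in CTRL cells, and YAP1 KO cells under DMSO held more of 1 and less of 1. In the order above, the shares called were 78.6% and 92.3% with OT and 92.9% and 15.4% for YAP1 KO. SCD, the stearoyl-CoA desaturase, averaged 15.5 ± 1.81 FPKM in PC9 CTRL DMSO and 2.91 ± 0.270 in YAP1 KO DMSO, and 45.9 ± 3.22 in HCC4006 CTRL DMSO and 6.87 ± 0.908 in CTRL OT (SD, n = 3). FASN, fatty acid synthase, had log2 differences of -0.65 and -1.52 in the same 2 comparisons, and ELOVL6, an elongase, of -0.67 and -2.22. Of 12 genes of SREBP processing and oxysterol sensing, OT raised 3 and lowered 5 in PC9 CTRL cells and raised 4 and lowered 6 in those of HCC4006. Under DMSO 1 stood higher and 4 stood lower in the YAP1 KO cells of PC9, against 2 and 1 in HCC4006. The shares called in this list, 66.7% and 83.3% with OT and 41.7% and 25.0% for YAP1 KO, lay near those of all genes. TMEM97, a binding partner of NPC1, fell with OT in both (-1.22 and -2.06), as did UBE2G2, a ubiquitin-conjugating enzyme (-0.46 and -1.27), and RXRA, the partner receptor of LXR, rose (0.17 and 0.95).

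Of 14 genes of the isoprenoid branches, which use farnesyl and geranylgeranyl groups, OT raised 2 and lowered 9 in PC9 CTRL cells and raised 4 and lowered 9 in HCC4006 CTRL cells, and under DMSO the YAP1 KO cells had more mRNA of 4 and less of 3 in PC9, against 3 and 1 in HCC4006. The shares called were 78.6% and 92.9% with OT and 50% and 28.6% for YAP1 KO. They lay somewhat above those of all genes, but rest on 14 genes, and no excess was tested. SRD5A3, which makes dolichol, rose from 5.36 ± 0.540 to 37.2 ± 2.48 FPKM with OT in HCC4006 CTRL cells (SD, n = 3), and from 2.05 to 3.41 in PC9. PDSS1, of coenzyme Q synthesis, fell in both (-1.60 and -2.29), and so did ICMT, which methylates prenylated proteins (-0.92 and -1.43). Of 25 sterol transport and lipoprotein genes tested in PC9, 11 rose and 9 fell with OT in CTRL cells and 4 were higher and 9 lower in YAP1 KO cells under DMSO. Of 26 tested in HCC4006 the counts were 14 and 8, and 1 and 2. The shares called were 80.0% and 84.6% with OT and 52.0% and 11.5% for YAP1 KO, near those of all genes with OT. GRAMD1C, a sterol transfer protein, rose (1.30 and 1.81) and the lipoprotein receptor LRP8 (-1.38 and -2.09) and OSBPL3, an oxysterol-binding-protein relative (-1.62 and -0.61), fell with OT in the CTRL cells of PC9 and HCC4006. In HCC4006 GRAMD1C was below 1 FPKM in every DMSO library and LRP8 in every OT library, so each passed the filter through the treatment where it was high, and a difference was required. Of the accessory and oxysterol enzymes, 7 were tested in PC9 and 8 in HCC4006. In CTRL cells OT raised 3 and lowered 2 in PC9, and raised 5 and lowered 2 in HCC4006, and in YAP1 KO cells under DMSO the counts were 1 and 2, and 0 and 3. The shares called, 71.4% and 87.5% with OT and 42.9% and 37.5% for YAP1 KO, rest on few genes and were near those of all genes with OT. CYP27A1, which makes an oxysterol by acting on the side chain of cholesterol, rose from 0.814 ± 0.137 to 2.61 ± 0.421 FPKM with OT in PC9 CTRL cells and from 1.33 ± 0.141 to 9.49 ± 0.348 in YAP1 KO cells, and the responses differed by a log2 difference of 1.19. In HCC4006 the OT difference of CYP27A1 in CTRL cells was 1.50, where the gene passed the filter through the OT groups alone, so a difference was required. FAXDC2, named for its hydroxylase domain, rose in HCC4006 (1.27).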

How the data were processed

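Messenger RNA was measured in 24 libraries, prepared, per the labels' protocols, with a stranded kit, and the groups were taken from the labels (the column headers say NOTX where the labels say DMSO). The authors deposited 1 table of FPKM with 25365 rows, and all 24 columns were mapped. STAR 2.5.1b, Cufflinks 2.2.1 and DESeq2 1.10.1 and the builds hg19 and GRCh37 are named, without a role, per the submitters' processing notes. The annotation and the strand setting are not given in the sources used here.

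FPKM are not counts, so no count test was used. In each line, limma 3.58.1 (R 4.3.3) was fitted to log2(FPKM + 1) of 12 libraries in 4 groups, with trended empirical Bayes moderation, for genes at 1 FPKM or more in at least 3 libraries (12685 in PC9, 13113 in HCC4006). A difference on this scale understates the change of low genes. Lines were compared in 1 fit of 24 libraries (13996 genes). There were 5 comparisons per line and 4 between lines, with Benjamini-Hochberg adjustment over all genes of each. The fit was checked on simulated data with changes set in a small part of the genes. That setting does not cover differences as widespread as those called with OT. Same-numbered dishes deviated together (every correlation above 0.1) only between HCC4006 CTRL DMSO and CTRL OT, with no number said in the labels to mark a shared day or batch. Of the 32 members 29 passed in PC9 (not NPC1L1, STARD4 and ABCG1, and ABCA1 through YAP1 KO OT alone) and 32 in HCC4006, of which MYLIP, NPC1L1, ABCA1 and ABCG1 passed through some groups. A member was described library by library where it had the largest or second largest called change of its pathway step in an OT, YAP1 KO or interaction comparison, which took 27, and up to 3 genes were named from each of 5 further lists (79 genes), of SREBP processing and oxysterol sensing, isoprenoid branches, sterol transport and lipoprotein handling, accessory and oxysterol enzymes, and fatty acid genes. The members and lists were chosen with earlier results of these data known. Promoters came from RefSeq (GRCh38.p14) and exon overlaps from GENCODE. Some genes of the pathway are not reported here. Alternatives were a pseudocount of 0.1, no filter, median-of-ratios scaling, each library rescaled to the same sum, a replicate block, and leaving out each library.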

Additional observations from a re-analysis of the deposited data

Results flagged for a closer look

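Each result here is a difference between 2 groups' responses that was itself called by limma. The OT response of CTRL cells differed between HCC4006 and PC9 for 25 members. For 10 of them OT was called in opposite directions in the 2 lines, higher in PC9 and lower in HCC4006: the log2 differences of the responses, HCC4006 minus PC9, were -2.10 for HMGCS1, -1.65 for MVD, -1.10 for FDPS, -1.37 for FDFT1 and -1.94 for SQLE. Those of the later enzymes were -1.24 for LSS, -2.26 for MSMO1, -1.26 for NSDHL and -1.95 for DHCR7, and that of the regulator SREBF2 was -0.74. The SREBF2 call in HCC4006 CTRL cells was not made without HCC4006 CTRL DMSO replicate 1 or HCC4006 CTRL OT replicates 2 or 3 (log2 difference -0.17 to -0.13).

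The YAP1 KO difference under DMSO differed between the lines for 22 members. TM7SF2, lower in PC9 YAP1 KO cells and higher in those of HCC4006, differed by 1.45, and NPC2, higher in PC9 and lower in HCC4006, by -0.39. The NPC2 difference within HCC4006 was not called without HCC4006 CTRL DMSO replicates 1, 2 or 3 or HCC4006 YAP1 KO DMSO replicates 1, 2 or 3 (log2 difference -0.24 to -0.21). Under OT the YAP1 KO difference was called between lines for 24 members, and 4 were lower in PC9 and higher in HCC4006: GGPS1 (0.37), TM7SF2 (1.62), SC5D (0.65) and SOAT1 (0.40). The HCC4006 difference of GGPS1 was not called without HCC4006 CTRL DMSO replicates 1, 2 or 3, HCC4006 CTRL OT replicate 1, HCC4006 YAP1 KO DMSO replicates 1, 2 or 3 or HCC4006 YAP1 KO OT replicates 1 or 2 (log2 difference 0.10 to 0.22), its PC9 difference without PC9 CTRL OT replicate 3 (log2 difference -0.14), and the HCC4006 difference of SC5D without HCC4006 CTRL OT replicate 2 or HCC4006 YAP1 KO OT replicate 1 (log2 difference 0.16).

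The OT response differed between genotypes for 13 members in PC9 and 12 in HCC4006. In PC9, FDPS (-0.42) and SQLE (-0.42) rose with OT in CTRL cells and fell in YAP1 KO cells, where the SQLE fall was not called without PC9 YAP1 KO DMSO replicate 3 or PC9 YAP1 KO OT replicate 3 (log2 difference -0.11 to -0.10).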

How the results depend on the processing

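The counts of members called stayed within 1.5 times their main value under every alternative, except the YAP1 KO difference in HCC4006 under DMSO, where leaving out 1 library gave counts from 2 to 8 in place of 6. Of the 433 member differences tested, none reversed on leaving out a library, 31 lost and 30 gained a call in at least 1 such fit. Rescaling each library to the same sum lost 13 calls, gained 18 and reversed 4: in HCC4006 with OT, GGPS1 in CTRL cells went to 0.21, SREBF2 in CTRL cells to 0.02, and NPC2 to 0.02 in CTRL and 0.18 in YAP1 KO cells. That rescaling moved the median of all genes with OT in HCC4006 from 0.09 to 0.28 in CTRL and from 0.11 to 0.28 in YAP1 KO cells. A pseudocount of 0.1 reversed the YAP1 KO difference of STARD4 under OT between lines (HCC4006 minus PC9) from -0.14 to 0.68, where PC9 levels are near 0. The cause was not tested. Same-numbered libraries correlated above 0.1 in 3 of 18 pairs in PC9 and 5 of 18 in HCC4006. All 3 pairs of HCC4006 CTRL DMSO with CTRL OT did (0.134, 0.146 and 0.143), and there a replicate block changed no member's call, with 6 higher and 22 lower as without it. No other pair of groups had all 3 above 0.1. With a replicate block the interaction was called for 14 members in PC9 and 11 in HCC4006, and the YAP1 KO difference under DMSO for 22 and 6. Depth is unknown, which limits the genes below 1 FPKM.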
